A study of Rattus norvegicus with 15 samples.

Results

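Mast cells are tissue-resident immune cells that lie along blood vessels and store proteases in granules. The genes described here are Cma1 (chymase), Cpa3 (carboxypeptidase A3), Tpsb2 (a beta tryptase) and Mcpt2 (a chymotrypsin-like granule protease), with Fcer1a and Ms4a2, the alpha and beta subunits of the high-affinity IgE receptor. The members were all probe sets whose symbol in the platform annotation is 1 of these 6 names, which gave 5 of the 6 genes, out of 4736 genes with a symbol of their own on the array, and 8 of its 8740 probe sets that are not controls. Cma1, Cpa3 and Tpsb2 have 1 probe set each, Fcer1a has 2 and Ms4a2 has 3. No probe set carries the symbol Mcpt2, so that gene has no value here. The 3 protease probe sets passed the filter on low signal and the 5 receptor probe sets did not. The genes were chosen for their signal across the groups compared below, so their differences are given as a description, with their errors and no test.

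RNA came from rat mesenteric arteries, the arteries that feed the gut, and was hybridised to Affymetrix rat arrays. The spontaneously hypertensive rat (SHR) was bred for a blood pressure that rises with age, and Wistar Kyoto (WKY) is its usual normotensive comparison strain. Control arteries of each strain were set against collateral arteries, which carry extra flow after neighbouring arteries are closed off. SHR gave 4 arrays of control and 4 of collateral arteries, WKY gave 3 of control and 4 of collateral arteries, and the labels give no drug, transgene, age or time after occlusion. They do not say that arrays of a group are separate animals, so every error and p-value measures only the spread between these samples, which may be technical.

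Human chymase cleaves angiotensin I to angiotensin II and acts on matrix proteins, and what the rat Cma1 enzyme cleaves was not measured here. Tryptase is stored in the same granules bound to heparin, and carboxypeptidase A3 removes residues from the C-terminal end of peptides. Binding of antigen to IgE on the receptor leads to phosphorylation of the beta and gamma chains by Lyn and recruitment of Syk, and the granules are then released. Rat mast cells of connective tissue and of mucosa hold different sets of these proteases.

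The 250 bases before the start of the 3 protease genes are shown for the members with measurable signal. They are RefSeq sequence on build GRCr8, from a reference strain that is neither SHR nor WKY, so they show no strain difference. Capitals mark AGATAA, a form of the site bound by GATA factors, which was searched on both strands and chosen after the sequences had been seen.
Cma1: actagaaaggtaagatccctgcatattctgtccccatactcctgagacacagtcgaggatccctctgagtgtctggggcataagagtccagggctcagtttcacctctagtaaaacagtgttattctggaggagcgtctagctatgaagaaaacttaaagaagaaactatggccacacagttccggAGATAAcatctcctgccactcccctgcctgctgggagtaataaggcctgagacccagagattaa
Cpa3: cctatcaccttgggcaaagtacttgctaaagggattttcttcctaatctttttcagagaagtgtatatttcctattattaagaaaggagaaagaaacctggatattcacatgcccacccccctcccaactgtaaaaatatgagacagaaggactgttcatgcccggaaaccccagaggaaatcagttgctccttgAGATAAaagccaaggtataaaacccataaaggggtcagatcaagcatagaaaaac
Tpsb2: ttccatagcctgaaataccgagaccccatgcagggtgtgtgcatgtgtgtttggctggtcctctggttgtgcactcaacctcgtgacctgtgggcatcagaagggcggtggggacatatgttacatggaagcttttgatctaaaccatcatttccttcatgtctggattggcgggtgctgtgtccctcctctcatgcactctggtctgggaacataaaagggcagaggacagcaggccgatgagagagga
The Cma1 stretch is chr15:33390134-33390383 on the minus strand, with AGATAA beginning 64 bases before the gene's start. The Cpa3 stretch is chr2:104673238-104673487 on the minus strand, and holds AGATAA at 55 bases before the start and TATAAA at 40. The Tpsb2 stretch is chr10:14886060-14886309 on the plus strand and holds 0 matches to AGATAA. Of 33469 rat promoters of this length, 10.3% hold AGATAA and 12.9% hold TATAAA on either strand, so a match is a description of these letters and not a binding site. Fcer1a (chr13:88224680-88224929, minus strand) has 1 AGATAA on the opposite strand, 93 bases before the start. The stretch of Mcpt1l1, a related protease described further on, holds 0 AGATAA. It holds 1 TGATAA, a near form also searched for, 103 bases before the start. Of the same promoters 7.97% hold TGATAA, and the stretches of Cma1, Cpa3, Tpsb2 and Fcer1a hold 0. Of the 6 genes, 5 matched a RefSeq gene and 4 had a promoter in the table used.

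SHR collateral 3 stood apart from the other arrays. Over the tested probe sets it correlated with each of them at a Spearman's rho of 0.496 to 0.657, against 0.805 to 0.931 among the other 14. Values without it stand beside several of the results below. The labelled tissue was checked on smooth muscle markers, and 6 of 6 on the array lay above the 80th percentile on every array. Of the 5 endothelial markers on the array, 0 were above the median on all arrays. The number of arrays limits the precision of all values.

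Cma1 was higher in SHR than in WKY arteries of both vessel types. Its signal on the 4 SHR control arrays was 2352, 1381, 3824 and 1341, and on the 3 WKY control arrays 626, 1078 and 768. On the SHR collateral arrays it was 1909, 1034, 2398 and 1249, and on the WKY collateral arrays 611, 976, 660 and 814. Each SHR array thus lay above all WKY arrays of its own vessel type, and 7 of 8 SHR arrays lay above every WKY array, SHR collateral 2 being the exception. Mean log2 signal was 10.98 ± 0.72 (SD, n = 4) in SHR control, 10.61 ± 0.55 (n = 4) in SHR collateral, 9.65 ± 0.40 (n = 3) in WKY control and 9.56 ± 0.31 (n = 4) in WKY collateral arteries. SHR minus WKY was 1.33 ± 0.40 (log2, SE from the fit over all arrays) in control arteries, a ratio of 2.52, and 1.05 ± 0.37 in collateral arteries, a ratio of 2.07. Averaged over vessel types it was 1.19 ± 0.27, a ratio of 2.28. Of the 6512 tested probe sets, 152 had an average difference at least as high. In control arteries 191 did, and in collateral arteries 469. The gene was chosen with these contrasts in view, so the ranks are a description. Without SHR collateral 3 the average was 1.09 and the difference in collateral arteries 0.84.

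Cpa3 showed its widest strain difference in collateral arteries. Its signal on the SHR collateral arrays was 292, 323, 591 and 379, and on the WKY collateral arrays 38.8, 42.3, 242 and 49.9. WKY collateral 1, 2 and 4 lay below their own array's 20th percentile, a level taken here as dim, while WKY collateral 3 lay well above the others. All 4 SHR collateral arrays were above all 4 WKY collateral arrays. On the SHR control arrays the signal was 459, 259, 624 and 158, and on the WKY control arrays 227, 75.3 and 125. Those groups overlapped, since SHR control 4 at 158 lay below WKY control 1 at 227. Mean log2 signal was 8.36 ± 0.88 (SD, n = 4) in SHR control, 8.57 ± 0.45 (n = 4) in SHR collateral, 7.01 ± 0.79 (n = 3) in WKY control and 6.06 ± 1.25 (n = 4) in WKY collateral arteries.

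The strain difference of Cpa3 was 1.35 ± 0.68 (log2, SE) in control arteries, a ratio of 2.55, and 2.51 ± 0.63 in collateral arteries, a ratio of 5.71. The average was 1.93 ± 0.46, a ratio of 3.82. In collateral arteries 8 of the 6512 tested probe sets had a difference at least as high, and in control arteries 178. Cpa3 was chosen with these differences in view, so nothing is read from these ranks. Because 3 WKY values were dim, the ratio depends on how dim signals are treated. With a constant equal to the median 20th percentile added before log2, the difference was 1.64 in collateral arteries and 1.32 on average. Without WKY collateral 3 the collateral difference was 3.13, and without SHR collateral 3 it was 2.30. Cpa3 was below the 40th percentile on 6 of 15 arrays, 5 of them WKY, so it entered the tested set through its signal in SHR.

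Tpsb2 showed no strain difference beyond its error. Its signal was 2151, 2271, 1779 and 2388 on SHR control arrays, and 1663, 2416 and 2889 on WKY control arrays. On SHR collateral arrays it was 1932, 2558, 3376 and 1790, and on WKY collateral arrays 1443, 2413, 2245 and 2138. The ranges of all 4 groups overlapped, and the highest value was that of SHR collateral 3. SHR minus WKY was -0.09 ± 0.30 (log2, SE) in control and 0.21 ± 0.28 in collateral arteries, which lies within the spread between arrays. The difference in collateral arteries was 0.03 without SHR collateral 3. The average of 0.06 ± 0.20 changed sign under 5 of 22 alternatives and was -0.03 without SHR collateral 3. An average at least as high was found for 3300 of the 6512 tested probe sets. Tpsb2 was above its array's 40th percentile on all 15 arrays, so low signal does not limit this comparison.

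**Figure D1:**
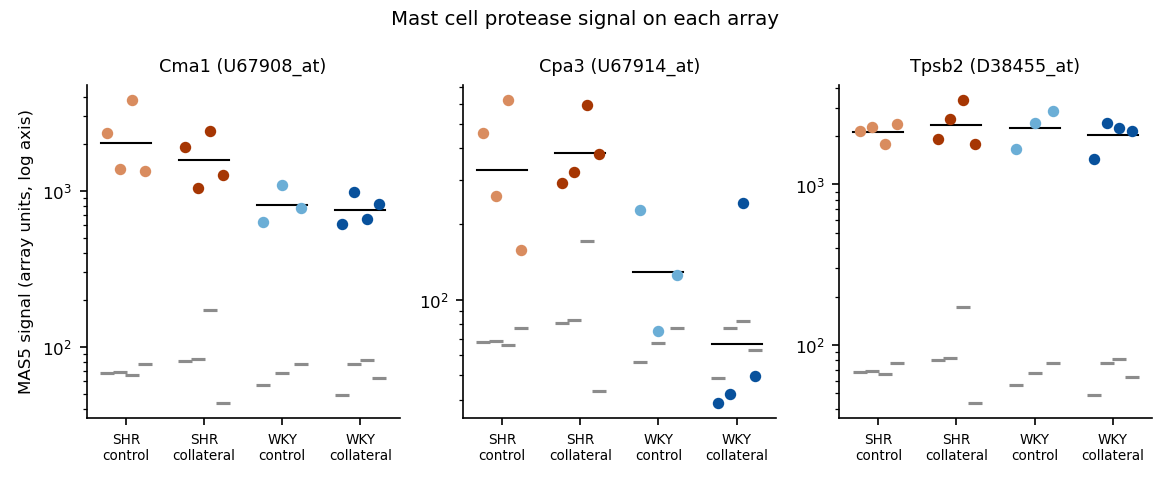
MAS5 signal (log axis, array units) of Cma1, Cpa3 and Tpsb2 on each array, by group. Points are arrays, black lines geometric means of a group, and grey dashes each array's 20th percentile. Cma1 separates the strains within both vessel types, Cpa3 only within collateral arteries, and 3 WKY collateral values of Cpa3 lie below the dashes.

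Counted over the proteases, Cma1 did not overlap between strains in control arteries, where 4.85% of all tested probe sets were higher in SHR and 3.72% lower with no overlap. Cma1 and Cpa3 did not overlap in collateral arteries, where 2.07% were higher and 1.55% lower without overlap. Over both vessel types together 0 of the 3 were without overlap, against 0.23% higher and 0.215% lower of all tested probe sets. The genes were chosen on these contrasts, so nothing is read from those counts. Arteries were measured whole, and more mast cells, or more RNA per mast cell, cannot be told apart.

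Lists of markers of other cell types were measured beside the proteases. Of 12 macrophage markers 6 were on the array and 5 were tested. In the strain difference averaged over vessel types, 56.9% of all tested probe sets were above 0, with a median of 0.07 (log2), and 0.891% passed. All 5 macrophage markers were above 0 there, with a median of 1.84, and 2 passed (limma, smallest adjusted p = 0.00643). Those 2 were Cd74 at 3.52 ± 0.61, dim on 3 arrays, and C1qb at 2.21 ± 0.47 (limma, adjusted p = 0.0269). Lyz2 at 1.84 ± 0.47, Cd14 at 0.54 ± 0.26 and C1qc at 0.07 ± 0.34 did not pass. When SHR collateral 3 was left out, the median was 1.77, 4 were above 0 and 2 passed. The log2 of their summed signal ran from 12.38 to 15.44 in SHR control, 14.03 to 14.86 in SHR collateral (14.03 to 14.49 without SHR collateral 3), 11.60 to 12.51 in WKY control and 12.20 to 14.21 in WKY collateral arteries. The 7 tested adipocyte markers had a median of 1.01 with 5 above 0, and 0 passed, and without SHR collateral 3 the median was 0.91 with 6 above 0. The 5 tested eosinophil and neutrophil markers had a median of 0.90, with 4 above 0, and the 6 smooth muscle markers a median of -0.42 with 0 above 0, while without SHR collateral 3 these were 0.69 with 3 above 0 and -0.20 with 1 above 0. Summed smooth muscle signal (log2) was 17.44 to 18.41 in SHR control, 16.49 to 18.87 in SHR collateral (17.92 to 18.87 without SHR collateral 3), 17.76 to 18.42 in WKY control and 17.99 to 18.76 in WKY collateral arteries. The 5 tested endothelial markers had a median of 0.10 with 3 above 0, or -0.06 with 2 above 0 without SHR collateral 3. Of these markers 1 was called, Icam2. It was lower in SHR by a log2 difference of -2.79 ± 0.42 on average (limma, adjusted p = 0.00454) and -3.62 ± 0.61 in control arteries (limma, adjusted p = 0.0434). Pecam1 was at 0.70 ± 0.30, Kdr at 0.26 ± 0.32, Vwf at 0.10 ± 0.46 and Nos3 at -0.49 ± 0.41 on average. The 4 tested peripheral nerve markers were above 0 with a median of 0.64, or 0.39 without SHR collateral 3, and 0 passed. The 4 tested lymphocyte markers had a median of 0.51 with 3 above 0, or 0.46 with 3 above 0 without SHR collateral 3. For the 8 fibroblast markers these were 0.15 with 5 and 0.13 with 7. The 2 mesothelial markers had -0.09 with 1 and -0.41 with 0, and 0 of these 3 lists passed. None of the 3 basophil markers was on the array. RNA integrity, read as the log2 excess of 3' over 5' probe signal for actin and Gapdh, was also measured, and that excess ran from 1.64 to 2.31 in SHR and from 2.07 to 2.62 in WKY. The part of these in the protease difference was not tested.

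The IgE receptor probe sets had low signal, below the 40th percentile on 13 to 15 of 15 arrays, and 3 of the 5 were below the 20th on most arrays. Fcer1a codes for the subunit that binds IgE, and its probe set M21622_at gave 59.7, 76.5, 90.4 and 104 on SHR control, 191, 331, 332 and 32.3 on SHR collateral, 84.7, 6.10 and 194 on WKY control, and 101, 172, 168 and 92.4 on WKY collateral arrays. It was below the 20th percentile on 3 of 15 arrays. SHR minus WKY was 0.80 ± 0.97 (log2, SE) in control and 0.33 ± 0.90 in collateral arteries, and all groups overlapped. Without WKY control 2, whose signal was 6.10, the control difference was -0.66, and without SHR collateral 3 the collateral difference was -0.01. The other probe set, M21622_g_at, was below the 20th percentile on 15 of 15 arrays, with signals from 5.43 to 75.7.

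Ms4a2 codes for the beta subunit, which amplifies signalling from the receptor. Its probe set M22923_at gave 14.9, 57.2, 16.3 and 73.8 on SHR control, 37.1, 24.5, 392 and 73.8 on SHR collateral, 7.51, 91.9 and 6.002 on WKY control, and 9.32, 40.1, 16.2 and 7.77 on WKY collateral arrays. The value of SHR collateral 3 was the highest, and 12 of 15 arrays lay below the 20th percentile. SHR minus WKY in collateral arteries was 2.28 ± 0.98, 1.47 without SHR collateral 3 and 0.89 with the constant added, and the groups overlapped. Its other probe sets did not repeat that difference. M22924_at gave 0.02 ± 1.24 and M22924_g_at 0.36 ± 0.84, with 10 and 7 of 15 arrays below the 20th percentile. These were -1.03 and -0.07 without SHR collateral 3. In control arteries the 3 Ms4a2 probe sets gave 0.99 ± 1.06, -1.04 ± 1.34 and -0.20 ± 0.91. At this signal a strain difference in receptor RNA was not detectable.

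**Figure D2:**
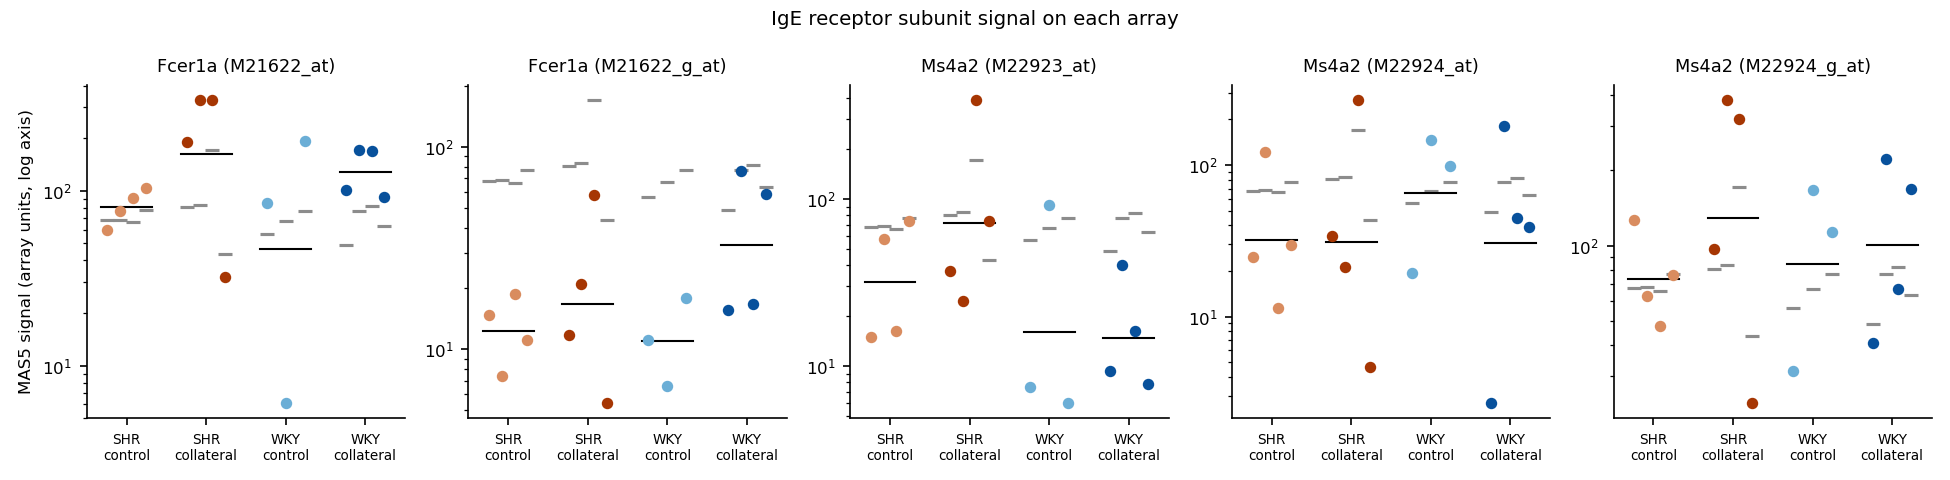
MAS5 signal (log axis, array units) of the 2 Fcer1a and 3 Ms4a2 probe sets on each array, by group, with points, lines and dashes for arrays, geometric means and each array's 20th percentile. Most points of 3 of the 5 panels (M21622_g_at, M22923_at, M22924_at) lie below the dashes, and all groups overlap.

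Within a strain, collateral and control arteries overlapped for all 3 proteases. In SHR the collateral minus control difference was -0.37 ± 0.37 (log2, SE) for Cma1, 0.21 ± 0.63 for Cpa3 and 0.13 ± 0.28 for Tpsb2. These were -0.58, 0.00 and -0.05 without SHR collateral 3. In WKY it was -0.09 ± 0.40 for Cma1, -0.95 ± 0.68 for Cpa3 and -0.16 ± 0.30 for Tpsb2. The largest of these, for Cpa3 in WKY, was -1.57 without WKY collateral 3 and -0.48 with the constant added. The difference between strains in this response was 1.16 ± 0.92 for Cpa3, -0.28 ± 0.54 for Cma1 and 0.29 ± 0.41 for Tpsb2, or 0.95, -0.49 and 0.12 without SHR collateral 3. Fcer1a M21622_at was 1.00 ± 0.90 in SHR (0.65 without SHR collateral 3) and 1.47 ± 0.97 in WKY, the latter 0.00 without WKY control 2, and M21622_g_at, at dim signal, was 1.58 ± 0.81 in WKY. In SHR the other receptor probe sets lay between -0.05 and 1.17, and between -1.09 and 0.38 without SHR collateral 3. Of the 8 members, 0 were without overlap between vessel types in either strain. Over all tested probe sets the shares without overlap were 0.906% higher and 0.814% lower in SHR, and 3.61% higher and 3.09% lower in WKY.

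**Figure D3:**
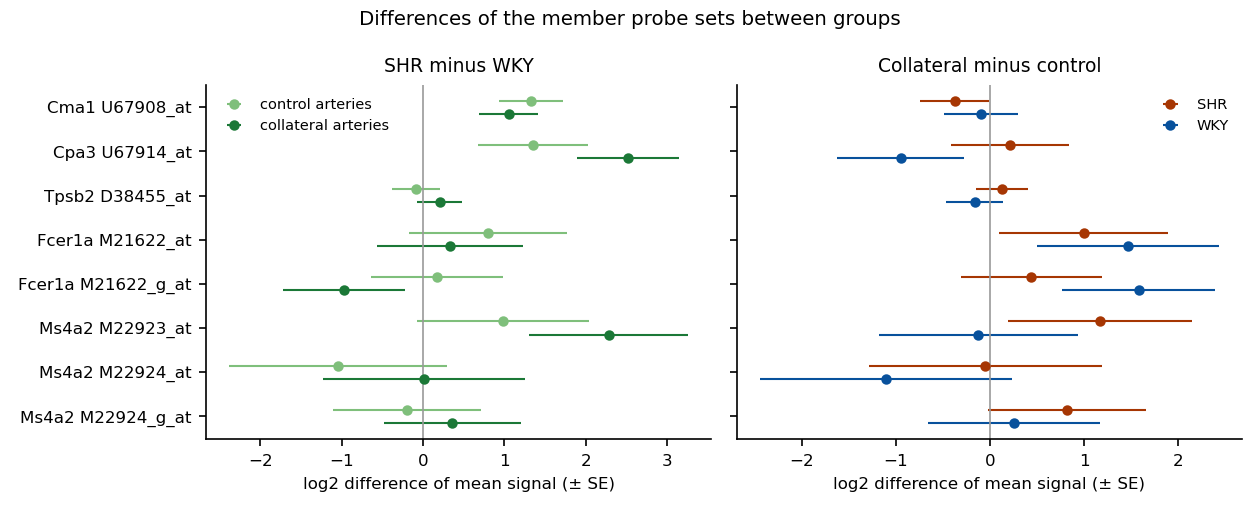
Log2 differences of mean signal (± SE from the fit) for the 8 member probe sets, SHR minus WKY by vessel type on the left and collateral minus control by strain on the right. Cma1 and Cpa3 lie to the right of 0 in both vessel types, Tpsb2 lies near 0, and the receptor probe sets have wide errors.

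How the proteases varied from array to array within a group was examined on deviations from the group means, with exact permutation within groups. This was done by strain, over 12 correlations, and over all 15 arrays, for 6 pairs of genes. In the 8 SHR arrays Cma1 and Cpa3 varied together with Pearson's r = 0.82 (exact permutation p = 0.0434) and Spearman's rho = 0.67 (p = 0.115). After adjustment over the 12 correlations neither passed (0.260 and 0.687), and r was 0.53 without the 2 arrays farthest from the median and 0.77 without SHR collateral 3. In the 7 WKY arrays r was -0.55 and rho -0.39 (exact permutation p = 0.257 and 0.417). Over all 15 arrays this pair had r = 0.22 and rho = 0.17 (exact permutation p = 0.437 and 0.569). That r was -0.07 without the 2 farthest arrays. Tpsb2 and Cma1 had r = -0.07 and rho = -0.26 in SHR (exact permutation p = 0.866 and 0.597), and r was -0.75 without SHR collateral 3. In WKY that pair had r = 0.64 and rho = 0.50 (exact permutation p = 0.188 and 0.361).

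Mcpt1l1, a gene of the rat chymase locus named mast cell protease 1-like 1, was measured by U67915_at. It lies on the same chromosome as Cma1 with 14 protein-coding genes between them in the GRCr8 table, and next to Mcpt1, a near relative, so its signal may include related transcripts. The signal was 5783, 4123, 9895 and 2634 on SHR control, 3033, 4795, 9587 and 3710 on SHR collateral, 1804, 2958 and 1960 on WKY control, and 2368, 1857, 3649 and 2963 on WKY collateral arrays. The strains overlapped in both vessel types, and SHR minus WKY was 1.03 ± 0.29 (log2, SE) on average, which did not pass (limma, adjusted p = 0.109). In control arteries the difference was 1.19 ± 0.42, and in collateral arteries 0.86 ± 0.39, or 0.53 without SHR collateral 3. Within SHR its deviations correlated with those of Cpa3 at r = 0.93 and rho = 0.90 (exact permutation p = 0.00521 and 0.0139), 0.0625 and 0.167 after adjustment, and r was 0.86 without the 2 farthest arrays. In WKY r was 0.32 and rho 0.11 (exact permutation p = 0.576 and 0.833). With Cma1 its r was 0.75 and rho 0.55 in SHR (exact permutation p = 0.0677 and 0.212), with r of 0.18 without the 2 farthest arrays, and r was 0.12 and rho 0.14 in WKY (exact permutation p = 0.806 and 0.792). Over all 15 arrays Mcpt1l1 had r = 0.59 and rho = 0.50 with Cpa3 (exact permutation p = 0.0198 and 0.0733, or 0.119 and 0.397 adjusted over the 6 pairs). With Cma1 these were 0.63 and 0.49 (exact permutation p = 0.0639 and 0.132). None of these passed after adjustment. The second probe set of Mcpt1l1, S69206_s_at, was dim on 11 of 15 arrays.

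**Figure D4:**
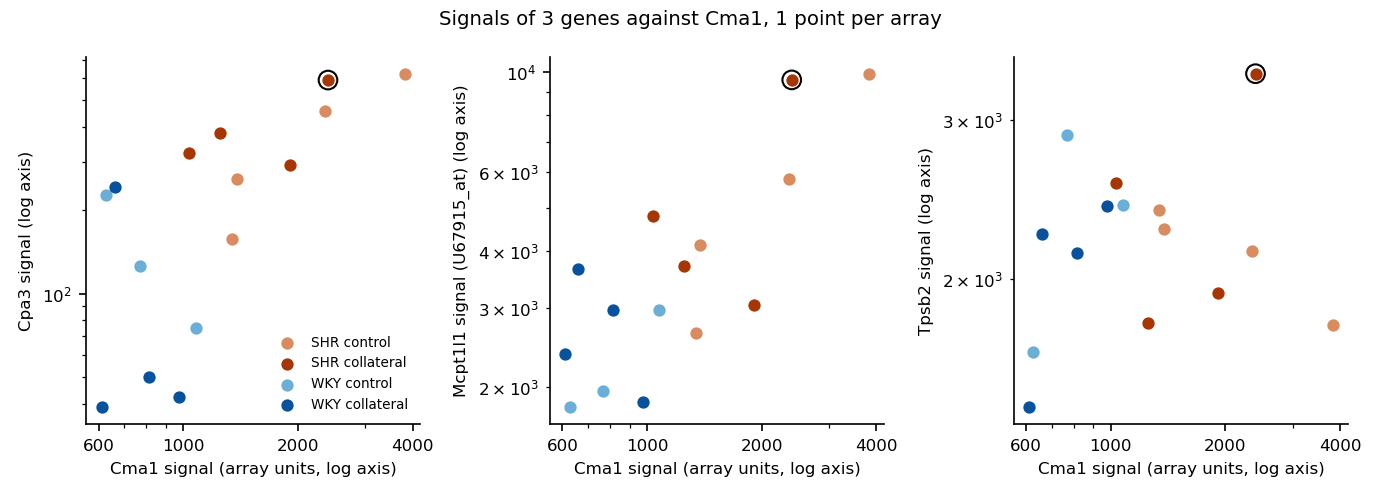
Signal of Cpa3, Mcpt1l1 and Tpsb2 against that of Cma1 (log axes, array units), 1 point per array, coloured by group, with SHR collateral 3 circled. SHR arrays lie to the right of WKY arrays on the Cma1 axis apart from 1 array, and Tpsb2 shows no order by strain.

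Other genes of mast cells, of signalling below the IgE receptor and of mast cell mediators were taken from a list of 87, of which 61 were on the array and 45 were tested. Called at an adjusted p under 0.05, 0 of 45 passed in any of the 7 comparisons, with 8 higher and 4 lower at an unadjusted p under 0.05 in the averaged strain difference. In that comparison 0.891% of all tested probe sets were called (0.0307% in control arteries and 0% in the other 5 comparisons), and 6.73% were higher and 5.13% lower at the unadjusted level. The median of the 45 genes was 0.34 (log2) against 0.07 over all tested probe sets. Of the 45, 28 were above 0, where 56.9% of all tested probe sets were. Without SHR collateral 3, 6 of 44 were higher and 5 lower at the unadjusted level, against 7.03% and 5.34% of all probe sets tested in that fit, and the median was 0.17.

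Among the mediators, Alox5ap, which presents arachidonic acid to 5-lipoxygenase, had the smallest adjusted p of the list (1.06 ± 0.29, limma, adjusted p = 0.0959). Hpgds, the haematopoietic prostaglandin D synthase of mast cells, was at 1.46 ± 0.51 (limma, adjusted p = 0.229) on a probe set dim on 5 arrays. A second one, dim on 9, had mean log2 signals of 5.75 in SHR and 6.02 in WKY control arteries, and 6.42 and 5.84 in collateral arteries. Vegfa, a growth factor for endothelium, was at 0.84 ± 0.32 and at 0.48 ± 0.42 on a second probe set. Ptgs2, the inducible cyclooxygenase, stood at -1.56 ± 0.49 on S67722_s_at (limma, adjusted p = 0.177), but its other probe set gave 0.05 ± 0.41. Il4, a cytokine of mast cells and T cells, was at -1.30 ± 0.58 on a probe set dim on 3 arrays. Its second probe set, dim on 12, had mean log2 signals of 5.94 in SHR and 6.07 in WKY control arteries. In collateral arteries these were 6.15 and 5.39. Hrh2, a histamine receptor, was at 1.02 ± 0.56 (limma, adjusted p = 0.507), or 0.67 without SHR collateral 3.

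Of 18 tested signalling genes, 13 were above 0 in the averaged strain difference, where 56.9% of all tested probe sets were. Their median was 0.25, with 4 higher and 1 lower at the unadjusted level, against 6.73% and 5.13%. Syk, the kinase recruited to the receptor, was at 0.94 ± 0.44 on U21683_at and 0.32 ± 0.60 on its other probe set. Fyn, a Src family kinase, was at 0.60 ± 0.25, Prkcb, a protein kinase C, at 1.22 ± 0.53 with 0.44 ± 0.45 on another probe set, and Ptpn6, an inhibitory phosphatase, at 1.15 ± 0.51. Plcg2, a phospholipase C, was at -0.97 ± 0.44. Lyn, which phosphorylates the receptor, was at 0.58 ± 0.66 (limma, adjusted p = 0.812). None of these passed.

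Of the other mast cell genes, 8 were tested. Tpsab1, the tryptase gene next to Tpsb2, was at 0.69 ± 0.39 (limma, adjusted p = 0.516), or 0.43 without SHR collateral 3. Srgn, the proteoglycan core of the granule matrix, was at -0.74 ± 0.32, or -0.49 without SHR collateral 3. Mcpt4, a mast cell protease on the same chromosome as Cma1, was at 0.38 ± 0.63 on a probe set that was dim on 7 arrays. Kit, the stem cell factor receptor that defines mast cells, was not tested, and its probe sets were dim on 6 and 13 of 15 arrays. Hdc, which makes histamine, was dim on 4 arrays, Kitlg on 10 and 15, Hrh1 on 9 and Mcpt1 on 9, and none of them was tested. No probe set carries the symbol Fcer1g, the gamma chain of the receptor.

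**Figure D5:**
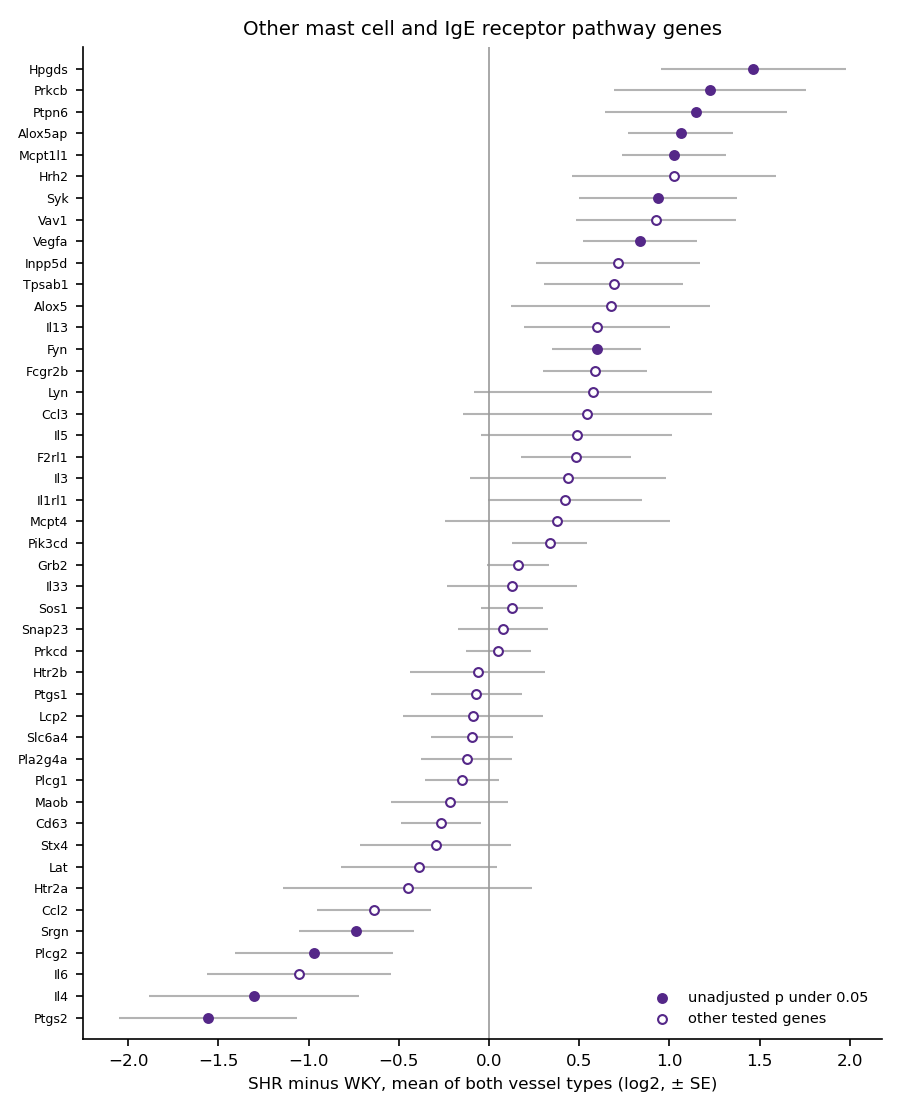
SHR minus WKY averaged over vessel types (log2, ± SE) for the 45 tested list genes, each gene shown by its brightest probe set. Filled points mark an unadjusted p under 0.05 (8 higher, 4 lower), and 0 passed after adjustment over all tested probe sets.

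By vessel type, the list had 3 genes higher (Hpgds, Alox5ap, Mcpt1l1) and 2 lower (Plcg2, Il4) at the unadjusted level in control arteries, where 3.72% and 2.75% of all tested probe sets were. In collateral arteries 7 were higher (Vegfa, Alox5ap, Il1rl1, Vav1, Mcpt1l1, Ptpn6, Il5) and 1 was lower (Ptgs2), against 4.01% and 3.61%. Without SHR collateral 3 the collateral counts were 2 higher and 1 lower of 44, against 2.65% and 2.62%. Vegfa stood at 1.23 ± 0.43 in collateral arteries, but its second tested probe set gave 0.13 ± 0.58. For collateral against control arteries, Lcp2, Il3, Ccl2 and Il5 were higher in SHR at the unadjusted level and 0 were lower, against 2.07% and 1.69%, and without SHR collateral 3 there were 0, against 1.51% and 2.1%. In WKY 0 were higher or lower, against 1.75% and 1.41%, and the 3 smallest p were those of Ccl2, a chemokine for monocytes (0.95 ± 0.46), Ptgs1 (0.54 ± 0.37) and Pik3cd (0.43 ± 0.30). Without SHR collateral 3, which enters the shared estimate of the spread, 1 was higher in WKY, against 2.84%. Averaged over strains, Il3 (1.18 ± 0.54) and Ccl2 (0.94 ± 0.31) were higher at the unadjusted level and 0 were lower, against 2.53% and 2.58%. The second probe set of Il3 gave 0.14 ± 0.64. The strains differed in this response at the unadjusted level for Il5 (2.25 ± 1.06), against 1.23% higher and 0.676% lower over all tested probe sets. None of these passed after adjustment, and without SHR collateral 3 the counts were 1 higher and 1 lower on average and 0 for the difference between strains.

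The genes whose signal was most like that of the members were sought on the 14 arrays without SHR collateral 3, as the correlation of log2 signal with the mean z-score of the 5 member probe sets that were at or above the 20th percentile on 8 arrays or more. Fcer1a M21622_at and Ms4a2 M22924_g_at were among these 5, though below the 40th percentile on 14 and 13 of 15 arrays. How far the result follows signal near background was not tested. The first 10 were Cdc37 (r = 0.89), Adcy10 (0.89), Rpl27a (0.86), Begain (0.86), RT1-DMb (0.85), Timm10b (0.85), Canx (0.84), P2rx2 (0.83), Supt5h (0.83) and Itpr1 (0.83). On all 15 arrays 5 of these 10 stayed among the first 10, and r of Cdc37 was 0.02. For the mean of Cma1 and Cpa3 alone, chosen after their levels were seen, the genes most like it were RT1-CE16 (0.90), Pgap2 (0.90), Nr1h3 (0.89), Gas7 (0.88) and Gstm1 (0.87). Among the list genes Mcpt1l1 was at 0.82, Fyn at 0.70 and Syk at 0.70, while Tpsb2 was at -0.05. These correlations are over arrays of both strains, so any strain difference enters them, and they are descriptions. After subtraction of group means, r of the first 10 ran from 0.71 (Itpr1) to 0.91 (Adcy10). For the genes most like Cma1 and Cpa3 it was 0.63 for RT1-CE16, 0.71 for Pgap2, 0.82 for Nr1h3, 0.61 for Gas7 and 0.75 for Gstm1. Mcpt1l1 was then at 0.72, Syk at 0.58, Fyn at 0.48 and Tpsb2 at -0.17. The signalling gene Inpp5d at 0.87 and Srgn at 0.81 were then above Mcpt1l1, having been at 0.61 and -0.14 before subtraction. The lowest list gene was Sos1 at -0.62.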

How the data were processed

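Total RNA of 15 artery samples was hybridised to Affymetrix rat arrays. The authors deposited 1 signal per probe set and array, made with GCOS and MAS5 per the submitters' processing notes, with versions not given in the sources used here. On every array the mean after trimming 2% lay between 1001.1 and 1001.7, so the authors' values were already scaled, which can raise dim probe sets on an array with little labelled RNA.

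Groups came from the sample titles. Signals were floored at 1 (12 values) and taken to log2. Of 8799 probe sets, 59 controls were left out, and the 6512 probe sets tested were those that reached the 40th percentile of their own array on 3 or more arrays. Symbols came from the platform annotation: 7006 probe sets had 1, 308 several and 1426 none, and the last 2 kinds were left unnamed. limma 3.58.1 in R 4.3.3 fitted 1 mean per group with a variance trend, moderated two-sided tests and Benjamini-Hochberg adjustment at 0.05. Member probe sets that failed the filter were fitted over all probe sets that are not controls, for differences and errors only. The fit and the permutation were tested on simulated data.

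The members and lists were chosen with earlier results of these data known. List genes were named if at an unadjusted p under 0.05 in a comparison described, otherwise the smallest p, with Kit, Hdc, Fcer1g, Srgn, Kitlg, Hrh1, Hrh2, Mcpt1, Mcpt4, Tpsab1, Lyn and Syk always named. Mcpt1l1 was described in full after its values were seen. Each gene stood by its probe set of highest mean signal. Correlations were permuted exactly within groups with scipy 1.17.1. Alternatives were other scaling, a constant before log2, other filters, no variance trend, array weights, fewer groups, the replicate number as a block, each array left out and another limit for dim signal. Added after the data were seen were the likeness to Cma1 and Cpa3 and the lists without SHR collateral 3.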

Additional observations from a re-analysis of the deposited data

Results flagged for a closer look

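Cpa3 on WKY collateral 3 was far from the other arrays of its group, at 242 against 38.8 to 49.9, a gap of 0.863 of the group's range. Tpsab1 on SHR collateral 3 was at 1174 against 245 to 309, a gap of 0.853. The limit for 4 arrays is 0.829, 36 groups of arrays were looked at, and chance flags about 1 in 20. Their causes were not tested.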

How the results depend on the processing

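Of 1264 member differences recomputed under alternatives, 360 equalled the main value. Of the 904 that changed, 900 moved by less than 1 SD between replicates. Those of Cma1 and Cpa3 between strains stayed above 0 under every alternative run: Cma1 averaged 1.04 to 1.30 and Cpa3 1.32 to 2.24. The other 4 were of Fcer1a: M21622_at without WKY control 2 gave -0.66 for strain in control arteries, 0.00 for vessel type in WKY and 0.99 for the difference of responses, and M21622_g_at gave 0.42 for vessel type in WKY with a constant added.

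The number of list genes called was 0 in all comparisons. Array weights called 1 in collateral arteries (Ptgs2) and 2 in the averaged strain difference (Ptgs2 and Alox5ap), and leaving out each array gave 0 to 2 there, with 2 without SHR control 4 (Mcpt1l1 and Alox5ap, smallest limma adjusted p = 0.0178). With the replicate number as a block, 1 was called in the averaged strain difference (Mcpt1l1, limma adjusted p = 0.0315), and the count over all probe sets went from 58 to 134. Same-numbered arrays deviated together with correlations from -0.07 to 0.31, not all above 0.1, so the numbers were not taken to pair samples. The cause of these changes was not tested. Over all probe sets the averaged strain difference had 184 calls with array weights, 31 with equal array medians, 34 without the variance trend, and 31 to 101 with arrays left out. In control arteries 2 were called, 14 with array weights, 4 with the block, 7 with only the compared groups and 0 to 6 with arrays left out, and in collateral arteries 0, 26, 6, 2 and 0 to 7. With equal array medians the median strain difference of all probe sets in collateral arteries went from 0.12 to -0.12. Only the compared groups could not be used where a comparison needs all 4. Signal near background limits the receptor genes, Kit and Hdc: with the 40th percentile as the limit, 5 member probe sets were dim on most arrays.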
